A study of Mus musculus with 5 samples.

Results

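The 10 genes described here carry or control antigen presentation by the major histocompatibility complex (MHC) in mouse liver nuclei: the class I genes H2-K1, H2-D1, H2-Q1 and B2m, the class II genes H2-Aa, H2-Ab1, H2-Eb1 and Cd74, and the transcriptional coactivators Ciita and Nlrc5. They were matched by symbol and are 10 of the 32285 genes in the count matrices. They were chosen from earlier readings of these same libraries, by their counts per cell lineage and diet, so their levels and diet differences are given as a description, with no test. Single-nucleus RNA was counted in livers of male wild-type C57BL6/J mice on a regular chow diet (3 libraries) or on the AMYLIN liver NASH diet (2 libraries, called MASH for metabolic dysfunction-associated steatohepatitis), which held 40 kcal% as fat, 20 kcal% as fructose and 2% as cholesterol. Feeding began at 10 to 12 weeks of age and lasted 5 months in both groups. Whether a library is 1 mouse or a pool is not given in the sources used here, and all p-values measure only the spread between these 5 libraries, which may be technical.

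MHC class I molecules pair a heavy chain, such as H2-K1 or H2-D1, with the light chain B2m, and show fragments of a cell's own proteins to cytotoxic T cells. Nearly all nucleated cells make them, with hepatocytes known for low levels. Class II molecules are dimers of an alpha chain (H2-Aa) and a beta chain (H2-Ab1, or H2-Eb1 of the E dimer) that are assembled on the invariant chain Cd74, take up fragments of ingested proteins and show them to helper T cells. This strain does not make the alpha partner of H2-Eb1. Class II genes are normally active in dendritic cells, B cells and macrophages, and can be switched on in other cells by interferon gamma. Ciita switches class II genes on and Nlrc5 does so for class I genes, and both act through a factor complex already sitting on the promoter. H2-Q1 belongs to the Q region of non-classical class I genes and its role is less well known.

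On GRCm38 (GENCODE M21 annotation), 6 of the 10 genes, all protein-coding, lie in the MHC cluster of chromosome 17: H2-K1 at chr17:33996017-34000347, H2-Ab1 at chr17:34257689-34269419, H2-Aa at chr17:34282744-34287823, H2-Eb1 at chr17:34305867-34316674, H2-D1 at chr17:35262730-35267499 and H2-Q1 at chr17:35320405-35325099. Class I genes are near copies of each other, which can split reads. In the last 500 bases of the longest annotated transcript, where 3-prime libraries place most reads, 7.28% of the 75-base windows of H2-Q1 also occur in H2-Q2, whereas 0 such windows of the other 9 genes occur in transcripts of another gene.

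The promoters of 4 genes are shown because the class II genes moved together in these data and both classes share promoter elements. They are the 200 bases before the RefSeq start site (GRCm38.p6), 5′ to 3′ on the gene's own strand. Capitals mark, on either strand, the letters CCAAT (the Y box), TGACG (core of the X2 box), CCNAGNNAC (X1 box), GAAANNGAA (interferon element) and GGGANTCCC (NF-kB element). In H2-Aa, 2 matches of TGACG overlap on opposite strands.
H2-K1 promoter (chr17:34000348-34000547, minus strand): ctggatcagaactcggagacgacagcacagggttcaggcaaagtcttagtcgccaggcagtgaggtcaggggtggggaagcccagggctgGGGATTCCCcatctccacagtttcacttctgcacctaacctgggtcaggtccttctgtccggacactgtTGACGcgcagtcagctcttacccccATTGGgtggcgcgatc
B2m promoter (chr2:122147487-122147686, plus strand): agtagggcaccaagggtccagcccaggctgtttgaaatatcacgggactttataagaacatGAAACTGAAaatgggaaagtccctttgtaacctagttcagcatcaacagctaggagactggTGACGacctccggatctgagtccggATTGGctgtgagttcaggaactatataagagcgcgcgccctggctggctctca
H2-Aa promoter (chr17:34287824-34288023, minus strand): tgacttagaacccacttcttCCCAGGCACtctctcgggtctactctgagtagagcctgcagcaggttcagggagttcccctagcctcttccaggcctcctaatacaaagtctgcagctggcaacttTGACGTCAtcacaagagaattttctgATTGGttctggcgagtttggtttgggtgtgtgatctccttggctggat
H2-Eb1 promoter (chr17:34305667-34305866, plus strand): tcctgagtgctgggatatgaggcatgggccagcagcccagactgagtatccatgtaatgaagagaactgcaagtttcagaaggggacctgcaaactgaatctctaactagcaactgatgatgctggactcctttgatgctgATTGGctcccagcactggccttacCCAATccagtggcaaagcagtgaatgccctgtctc
The Y box was present in all 4 of these windows, and in 29.3% of the 32851 promoter windows of that length in the table. TGACG was present in H2-K1, B2m and H2-Aa and in 15.7% of all windows. A CCNAGNNAC match was found in H2-Aa (11.8% of all windows), GAAANNGAA in B2m (5.57%) and GGGANTCCC in H2-K1 (0.469%). The H2-Aa match of CCNAGNNAC starts at -180, far from the TGACG match at -74, so its X1 label rests on the letters alone. Promoters of 5 of the 10 genes were in the table. The window of H2-D1 is not printed because it lies inside the GENCODE gene, whose start is further upstream. A match is a description of these letters and not of a bound site, and a missing match does not mean that a box is absent.

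The genes outside the cluster are B2m at chr2:122147686-122153083, Nlrc5 at chr8:94434356-94527272, Ciita at chr16:10480059-10528418 and Cd74 at chr18:60803848-60812652. H2-Eb1, B2m, Ciita and Nlrc5 overlap a gene on the opposite strand.

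The libraries held 8633 to 12935 barcodes and 35612373 to 49137377 unique molecular identifiers (UMIs), and 7969 to 11574 nuclei were kept. Any pair of libraries shared 23 to 48 barcodes, at most 0.399% of the smaller library. Nuclei were assigned to lineages by clusters made without the antigen presentation genes. Hepatocyte nuclei numbered 4651 to 9147 per library, and the gate genes of each lineage were highest in their own lineage (Hnf4a at 160.4 to 398 CPM in hepatocyte nuclei, Ptprc at 901 to 1575 in immune nuclei). Immune nuclei were 1.7% to 4.62% of the assigned nuclei in chow and 23.5% and 13.6% in MASH replicates 1 and 2. MASH replicate 1 had the highest median mitochondrial share, 7.42%, against 0.892% in MASH replicate 2. Levels are counts-per-million (CPM) of the summed UMIs of a nucleus class in 1 library, which are not scaled by gene length. Log2 fold changes (MASH over chow, ± SE) come from edgeR with TMM scaling.

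Of the 8 nucleus classes compared in MASH, dendritic-like, B-like and macrophage-like nuclei had the most class II RNA. The 4 class II genes together reached 7801 and 7083 CPM in dendritic-like nuclei of MASH replicates 1 and 2. In B-like nuclei they reached 4057 and 5146, and in macrophage-like nuclei 3269 and 3600.0. Dendritic-like levels were above both others in each MASH library, and B-like levels above macrophage-like levels. Endothelial nuclei came next with 754 and 601, followed by T and NK-like (457 and 531), stellate (443 and 414) and cholangiocyte nuclei (417 and 386), the last pair of which overlapped, and hepatocyte nuclei were lowest with 100.5 and 91. In chow the sums were 1618, 1981 and 3152 in macrophage-like, 117, 209 and 147 in endothelial, 53.5, 82.5 and 62.4 in stellate, 43.2, 27 and 245 in T and NK-like and 10.4, 14.7 and 19 in hepatocyte nuclei. The immune lineage held 48.2% to 65.4% of all class II UMIs of the 5 lineages in chow and 70.2% and 57.8% in MASH. Nuclei given no lineage are left out of these shares, and they also held class II UMIs. For Cd74, all kept nuclei held 745, 746 and 1353 UMIs in chow and 6523 and 4636 in MASH. The 5 lineages held 458, 485 and 1027 of these in chow and 4358 and 3355 in MASH. Fewer than 20 dendritic-like nuclei were present in each chow library, so no diet comparison was made in them. Nuclei named neutrophil-like from the marker lists, nearly absent in MASH, held 0.628 and 3.65 class II UMIs per nucleus in chow replicates 1 and 3. Macrophage-like nuclei of these libraries held 1.53 and 4.38. The neutrophil-like values come from different clusters. In chow replicate 1, 115 of the 129 nuclei lay in a cluster led by S100a9, S100a8 and Camp. All 52 of chow replicate 3 lay in a cluster led by Vcan, Il1b and Lyz2. Their neutrophil-like name is therefore uncertain, and the 3.65 is not read as a neutrophil value.

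**Figure D1:**
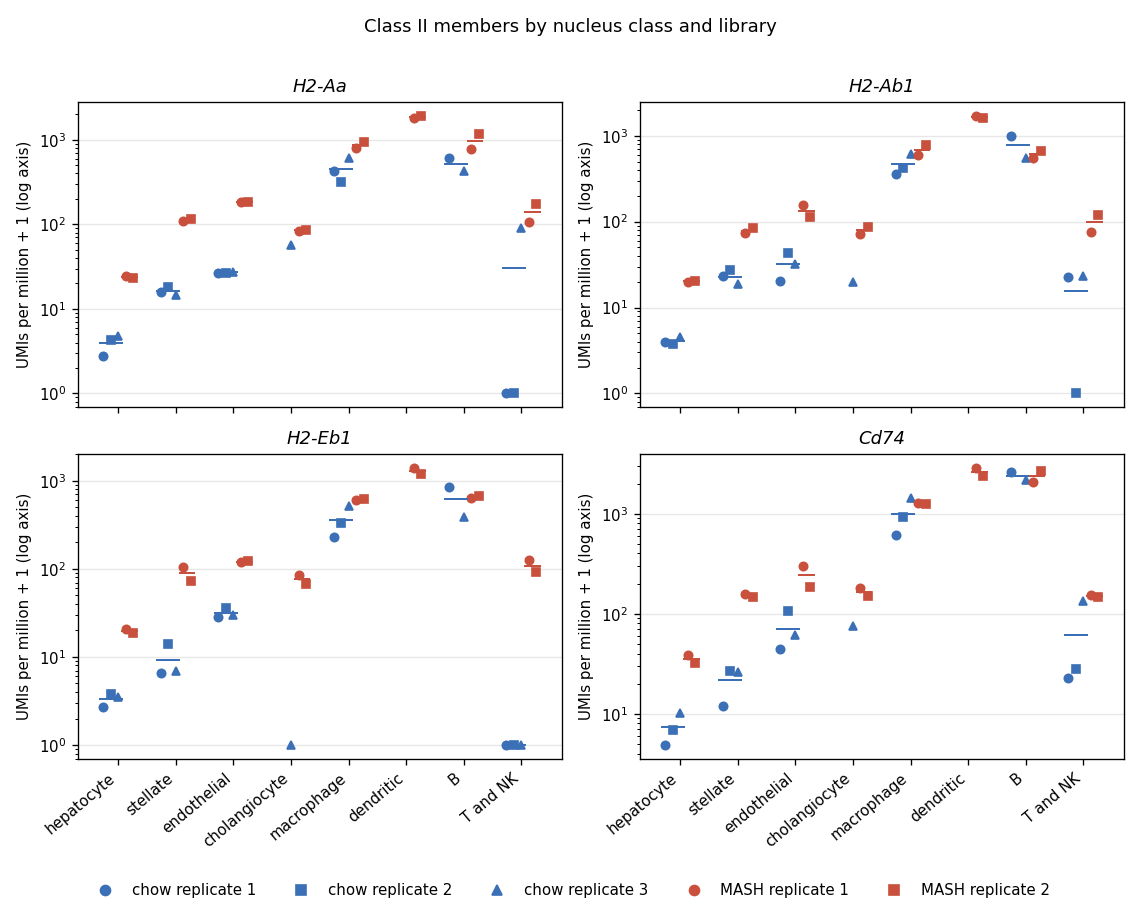
CPM plus 1 (log axis) of H2-Aa, H2-Ab1, H2-Eb1 and Cd74 in 8 nucleus classes. Points are libraries with at least 20 nuclei of the class, blue for chow and red for MASH, and lines are means over libraries. MASH libraries lie above chow libraries in hepatocyte, stellate and endothelial nuclei for all 4 genes, at levels far below those of macrophage-like nuclei.

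In macrophage-like nuclei the class II genes were at similar or somewhat higher levels in MASH. Cd74 was 607, 919 and 1422 on chow and 1271 and 1252 CPM in MASH, a log2 fold change of 0.37 ± 0.48, and the groups overlapped. H2-Aa was 428, 312 and 602 on chow and 798 and 945 in MASH, with no overlap (0.99 ± 0.39). H2-Eb1 was 226, 329 and 516 on chow and 598 and 627 in MASH, and H2-Ab1 overlapped between the diets. Among the 3 chow libraries, replicate 3 had the highest level of each of these 4 genes. H2-Aa, H2-Eb1 and Ciita did not overlap between the diets, and 9.24% of the 4870 genes tested in this class had every MASH library above every chow library. The diets filled different clusters of this class. Chow nuclei lay mostly in clusters led by Cd163 and Clec4f, markers of resident Kupffer cells, and MASH nuclei in clusters led by Cd84, Kcna2, Ms4a7 or Mmp12. The cluster led by Kcna2 also had Cd5l and Clec4f among its leading genes, and held 315 and 260 nuclei of MASH replicates 1 and 2. The part of this make-up in the levels was not tested.

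Ciita, the class II coactivator, was 47.6, 33.7 and 72.5 CPM in macrophage-like nuclei of chow (4, 4 and 16 UMIs) and 133 and 249 in MASH. Its log2 fold change there was 1.81 ± 0.42, and 1.52 to 2.27 when any 1 library was left out. The diets did not overlap, and the level was higher in MASH replicate 2 than in MASH replicate 1. B-like nuclei of chow replicates 1 and 3 held 357 and 183 CPM of it, and those of MASH held 175 and 145, from 10, 9, 20 and 5 UMIs in that order. B-like nuclei of chow replicate 3 numbered 38. With doublet calls kept they numbered 15, and a cluster named plasma held 22 nuclei of that library. It held 3 of chow replicate 1 and 0 and 1 of MASH replicates 1 and 2. The part of such nuclei in the Ciita level was not tested. Endothelial nuclei held 3, 1 and 0 Ciita UMIs in chow and 14 and 21 in MASH. Hepatocyte nuclei held 1.35, 0.599 and 1.36 on chow and 2.97 and 4.44 CPM in MASH. Dendritic-like nuclei of MASH held 470.0 and 562, the highest of the 8 classes in each MASH library.

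Over the whole immune lineage the folds of H2-Ab1, H2-Eb1 and Cd74 were below their SE, while H2-Aa was 499, 419.8 and 576 CPM on chow and 753 and 987 in MASH (0.75 ± 0.43). Cd74 was 1084, 1213 and 1598 on chow and 1313 and 1355 CPM in MASH (-0.01 ± 0.52). H2-Ab1 was 568, 660.4 and 674 on chow and 617 and 813 in MASH (0.11 ± 0.44), and H2-Eb1 was 414, 573 and 563 on chow and 594 and 638 in MASH (0.20 ± 0.44). The make-up of the lineage differed between libraries: neutrophil-like nuclei were 38.2% of the immune nuclei of chow replicate 1 and 0.0507% and 0% of those in MASH, and 21.6% of the immune nuclei of MASH replicate 1 stayed unnamed.

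In hepatocyte nuclei the class II genes were detected at a low level that was higher in MASH. H2-Aa was 1.77, 3.23 and 3.81 CPM in the 3 chow libraries in order and 23.7 and 22.5 in the 2 MASH libraries (2.58 ± 0.44). H2-Ab1 was 3.01, 2.75 and 3.55 on chow and 18.7 and 19.5 in MASH (2.26 ± 0.32). H2-Eb1 was 1.73, 2.81 and 2.47 on chow and 19.9 and 17.9 in MASH (2.65 ± 0.36). Cd74 was 3.87, 5.87 and 9.18 on chow and 38.1 and 31.1 in MASH (2.05 ± 0.47). The diets did not overlap for any of these 4 genes, and in hepatocyte nuclei 39.4% of tested genes had every MASH library above every chow library. Ptprc, a tyrosine phosphatase of blood cells that hepatocytes lack, was 2.75, 2.19 and 2.47 on chow and 16.2 and 18.9 in MASH in the same nuclei.

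Stellate and endothelial nuclei showed the same order at higher levels. In stellate nuclei Cd74 was 11.1, 26 and 25.3 CPM on chow and 157 and 145 in MASH (2.87 ± 0.44), and H2-Eb1 was 5.54, 13 and 5.85 on chow and 104 and 71.5 in MASH (3.58 ± 0.50). H2-Aa was 14.8, 17.4 and 13.6 on chow and 109 and 114 in MASH, and H2-Ab1 was 22.1, 26 and 17.5 on chow and 72.1 and 83.3 in MASH. All 4 class II genes were without overlap between the diets, against 12.3% of all genes tested in stellate nuclei. Ptprc in the stellate nuclei was 44.3, 8.68 and 3.9 on chow and 116 and 95.2 in MASH. In endothelial nuclei Cd74 was 43.7, 106 and 60.1 on chow and 301 and 185 in MASH (1.73 ± 0.52), and H2-Aa was 25.9, 25.9 and 26.7 on chow and 181 and 181 in MASH (2.74 ± 0.39). H2-Eb1 was 27.5, 35.3 and 28.9 on chow and 117 and 123 in MASH, and H2-Ab1 was 19.4, 42.3 and 31.1 on chow and 154 and 112 in MASH. There too the diets did not overlap for any of the 4 genes (11.4% of tested genes). Ptprc was 37.3, 18.8 and 15.6 in endothelial nuclei of chow and 199 and 143 in those of MASH. In stellate nuclei the diets lay mostly in different clusters. Chow replicate 3 held nearly all of a stellate cluster led by Ccl2 and Dcn, and the MASH libraries most of that led by Hand2os1 and Adamtsl2. Endothelial clusters differed by library rather than by diet. Chow replicate 3 held nearly all of an endothelial cluster led by Cyyr1 and Clec4g. Chow replicate 1 shared the endothelial cluster led by Ptprb and Egfl7 with the MASH libraries (639 nuclei beside 543 and 734). Cholangiocyte nuclei were too few in chow (9 to 43 per library) for a comparison, and held 417 and 386 class II CPM in MASH.

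Class II levels outside the immune lineage were set beside 11 to 18 genes a library that were taken as immune-only, such as Ptprc and C1qa. Each gene's level is a percent of its own level in immune nuclei of the same library (genes with at least 20 UMIs in those immune nuclei). In hepatocyte nuclei the class II genes stood at 0.388, 0.487 and 0.551% (median of 4 genes) in chow, and the reference genes at 0.501, 0.707 and 0.503%. In MASH the medians were 3.09 and 2.35% for class II and 3.05 and 2.29% for the reference genes. In every library the 4 class II genes in hepatocyte nuclei lay inside the range of the reference genes, which in MASH replicate 1 ran from 1.28% to 5.15%. In stellate nuclei of chow the medians were 2.15, 3.11 and 1.98% for class II and 3.27, 3.53 and 1.96% for the reference genes. In those of MASH they were 13.3 and 10.9% for class II and 12.2 and 10.7% for the reference genes. In endothelial nuclei class II stood at 4.61, 6.28 and 4.63% in chow and the reference genes at 3.42, 8.79 and 1.91%. In MASH these medians were 23.5 and 16.1% and 23.6 and 12%. Endothelial class II was above the reference median in chow replicates 1 and 3 and MASH replicate 2 and below it in the other 2 libraries, and H2-Eb1 was above the highest reference gene in chow replicate 3 (5.14% against 4.91%) and in MASH replicate 2 (19.2% against 19%). Cholangiocyte nuclei of MASH stood at 12.5 and 10.5% for class II and 13.2 and 7.56% for the reference genes. The reference gene Csf1r stood apart in these nuclei, at 27.1 and 34.6%.

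**Figure D2:**
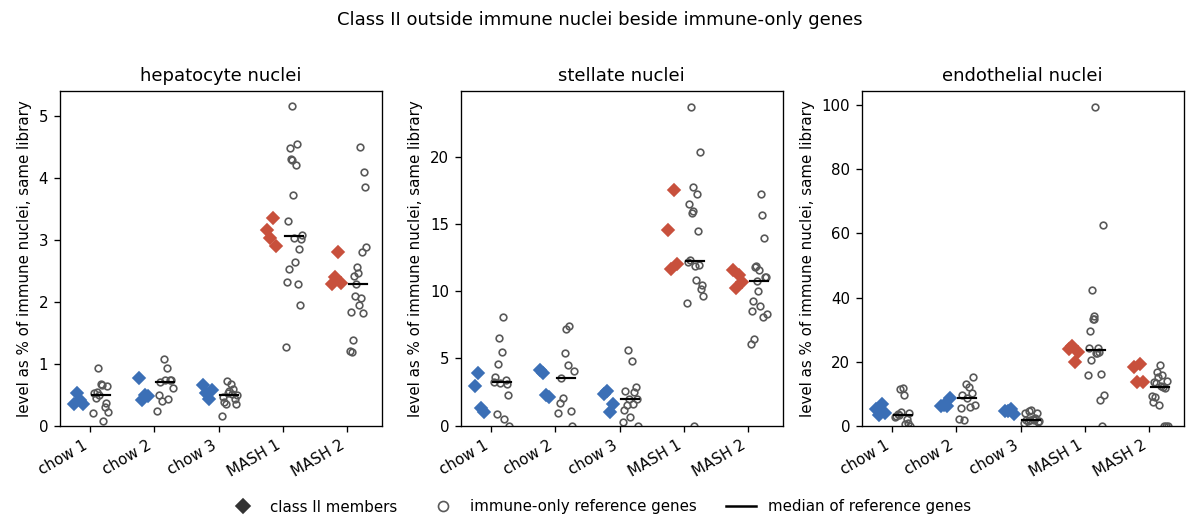
Level of each gene in hepatocyte, stellate and endothelial nuclei as a percent of its level in immune nuclei of the same library (linear axes that differ between panels). Filled diamonds are the 4 class II genes, open circles the immune-only reference genes and black lines the reference median. The class II genes sit within the spread of the reference genes in hepatocyte nuclei of all 5 libraries.

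Counted per nucleus, class II UMIs in MASH were lower in all lineages outside the immune one, and in T and NK-like nuclei, than in macrophage-like nuclei. In MASH replicates 1 and 2, hepatocyte nuclei held 0.437 and 0.426 class II UMIs per nucleus. Stellate nuclei held 0.638 and 0.579, endothelial nuclei 0.899 and 0.628 and cholangiocyte nuclei 0.618 and 0.534. T and NK-like nuclei, which in mice do not normally make class II, held 0.493 and 0.442. Macrophage-like nuclei held 4.0 and 4.35 and dendritic-like nuclei 10.6 and 7.0. In chow the hepatocyte values were 0.0476, 0.0536 and 0.0908 and those of T and NK-like nuclei 0.0392, 0.0312 and 0.25.

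**Figure D3:**
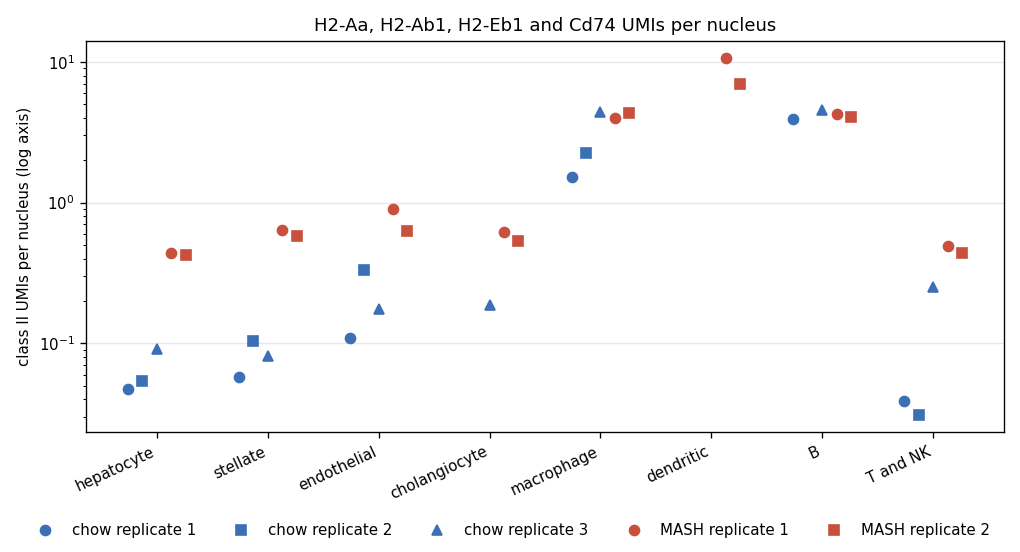
UMIs of H2-Aa, H2-Ab1, H2-Eb1 and Cd74 together per nucleus (log axis) in 8 nucleus classes, 1 point per library with at least 20 nuclei of the class. In MASH the hepatocyte, stellate, endothelial, cholangiocyte and T and NK-like points lie between 0.426 and 0.899, below every macrophage-like, dendritic-like and B-like point of either diet.

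At least 1 class II UMI was found in 31.7 and 30.8% of hepatocyte nuclei in MASH, at a median of 4024 and 3947 UMIs per nucleus. In T and NK-like nuclei, at 986 and 735 UMIs, the share was 31.7 and 29.1%. After thinning each nucleus to 500 UMIs, which left out no nucleus, it was 5.57 and 5.2% of hepatocyte nuclei, 15.9 and 14.1% of stellate nuclei and 17.7 and 19.8% of T and NK-like nuclei. The hepatocyte and stellate shares were below the T and NK-like shares in both libraries at 500 UMIs. Thinning removes a larger part of the UMIs of hepatocyte nuclei, which were deeper than T and NK-like nuclei, so this order depends on depth. The source of these UMIs was not tested. In chow the unthinned shares were 4.28, 4.49 and 7.74% of hepatocyte nuclei. Hepatocyte nuclei with and without a class II UMI had similar median doublet scores, 0.136 and 0.13 in MASH replicate 1, and 43.1% and 41.9% of them had a UMI of an immune-only reference gene. In MASH replicate 2 these shares were 36.1% and 31.2%. Endothelial shares were 21.3 and 18.4% at 500 UMIs, above the T and NK-like share in MASH replicate 1 and below it in MASH replicate 2. Endothelial nuclei with a class II UMI had one of a reference gene in 61.2% and 41.9% of cases in MASH, against 44.7% and 28.7% of those without.

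Class I heavy and light chain RNA was found in every lineage, with the lowest levels in hepatocyte nuclei. H2-K1, H2-D1 and B2m together gave 795, 1108 and 1078 CPM in hepatocyte nuclei of chow and 1136 and 896 in MASH. T and NK-like nuclei had the highest sums in every library, 4965, 4232 and 6780.4 on chow and 5527 and 5169 in MASH. In MASH the order below them was dendritic-like (3760.3 and 3223), B-like (3733 and 3122), endothelial (3665 and 2768), macrophage-like (3337 and 2399.7), stellate (3346 and 1994) and cholangiocyte nuclei (2824 and 2058), with overlap between each pair of neighbours. Per nucleus, hepatocytes held 3.65, 4.04, 5.15, 4.94 and 4.2 class I UMIs in chow replicates 1 to 3 and MASH replicates 1 and 2, and macrophage-like nuclei 3.01, 4.02, 4.8, 4.08 and 2.9. The hepatocyte value was the higher in each library. Hepatocyte nuclei held 81.9% to 92.3% of the class I UMIs of the 5 lineages in chow and 57.2% and 59% in MASH. Nuclei given no lineage are left out of these shares too.

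H2-K1, the K heavy chain, overlapped between the diets in hepatocyte and endothelial nuclei. In hepatocyte nuclei it was 431, 537 and 430.2 CPM on chow and 533 and 496 in MASH. The direction depended on scaling, with a log2 fold change of -0.19 ± 0.31 under TMM and 0.14 without it. The median over all genes tested in hepatocyte nuclei was -0.03 under TMM and 0.29 without, so hepatocyte folds are read against that shift. In stellate nuclei H2-K1 was 1382, 1463 and 1757 on chow and 1285 and 948 in MASH, with both MASH libraries lower (-0.51 ± 0.47). Here and below, the share of all genes with every MASH library below every chow library was not counted. Endothelial levels were 1147, 1211 and 1319 on chow and 1389 and 1313 in MASH.

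H2-D1, the D heavy chain, was set apart by chow replicate 3. In hepatocyte nuclei it was 158, 178 and 390.3 CPM on chow and 159.7 and 140.5 in MASH, a log2 fold change of -1.11 ± 0.55 that became -0.39 without chow replicate 3. The same library was highest of the chow libraries in stellate (832, 625 and 1226), endothelial (567, 548 and 1081), macrophage-like (1023, 759 and 1273) and T and NK-like nuclei (1079, 836 and 1739.7). In B-like nuclei it was not, with 1177 in chow replicate 1 and 1137 in chow replicate 3. MASH levels were 568 and 379.7 in stellate, 589 and 524 in endothelial and 624 and 583 in macrophage-like nuclei. Both MASH libraries were below all chow libraries in stellate and macrophage-like nuclei and overlapped them in hepatocyte and endothelial nuclei. The share of all genes lower in this way was not counted. Genes of the interferon list were often highest in chow replicate 3: of 19 with at least 10 UMIs in chow stellate nuclei, 16 were highest in that library among the 3 on chow, as were 13 of 19 in hepatocyte and 11 of 19 in endothelial nuclei. In macrophage-like nuclei chow replicate 3 did not stand apart, with 8 of 17 highest in it and 8 in chow replicate 1. The chemokine Cxcl10 was 68.3, 52.1 and 599 in chow stellate nuclei and 75.2 and 23.7 in MASH. Their part in the H2-D1 level was not tested.

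B2m, the light chain, differed widely between libraries of 1 diet. In hepatocyte nuclei it was 206, 392 and 258 CPM on chow and 443 and 260.1 in MASH (-0.03 ± 0.42 under TMM and 0.30 without scaling). MASH replicate 1 was above MASH replicate 2 in all 8 classes, with 1228 against 475 in dendritic-like and 1493 against 666 in stellate nuclei. With 1 library left out at a time, the fold ran from -0.55 to 0.35 in hepatocyte and from -0.79 to 0.41 in endothelial nuclei, changing sign in both.

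**Figure D4:**
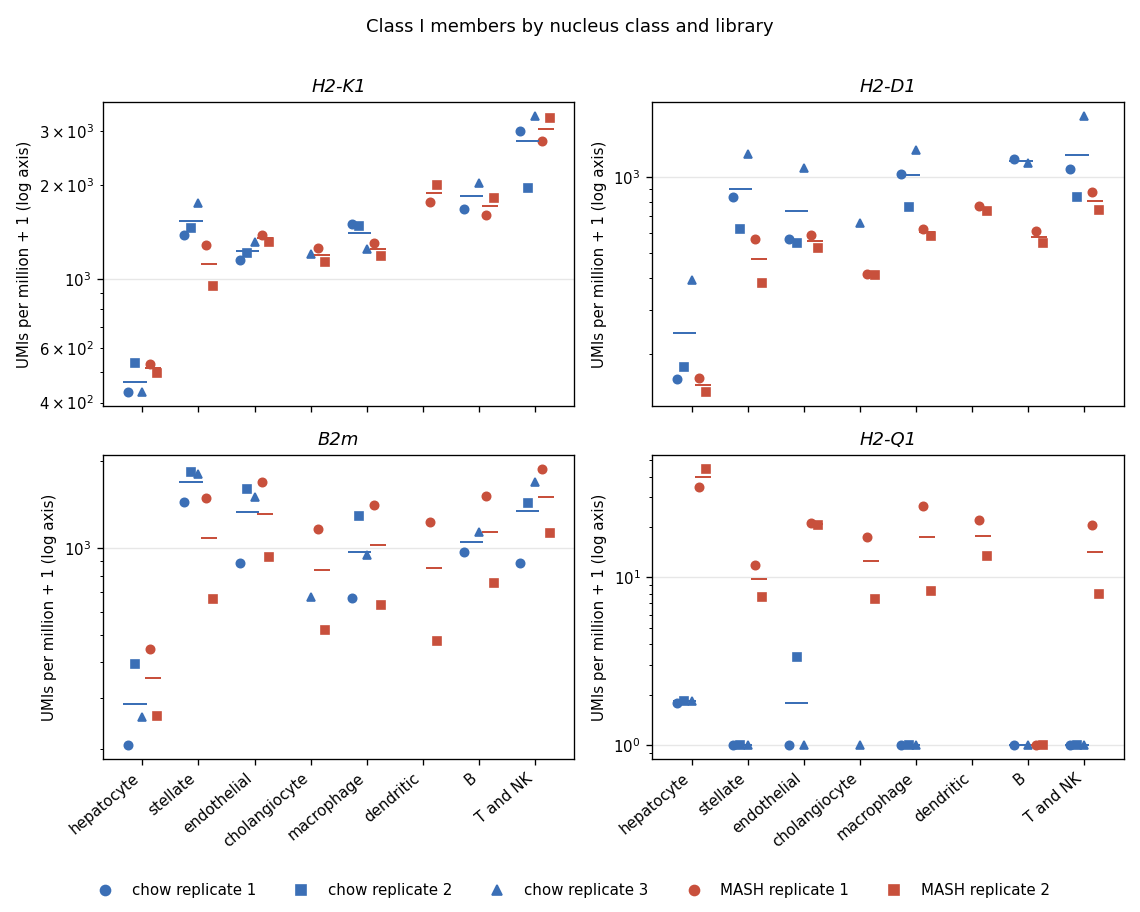
CPM plus 1 (log axis) of H2-K1, H2-D1, B2m and H2-Q1 in 8 nucleus classes. Points are libraries with at least 20 nuclei of the class, blue for chow and red for MASH, and lines are means over libraries. H2-Q1 separates the diets in hepatocyte nuclei (0.79, 0.838 and 0.832 in chow, 33.8 and 43.6 in MASH), while H2-K1, H2-D1 and B2m overlap there.

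H2-Q1 had the largest diet difference of the 10 genes in hepatocyte nuclei. It was 0.79, 0.838 and 0.832 CPM in chow (21, 28 and 33 UMIs) and 33.8 and 43.6 in MASH (684 and 972 UMIs). The means were 0.82 ± 0.0263 (SD, n = 3) and 38.7 ± 6.91 (SD, n = 2). Its log2 fold change was 5.20 ± 0.29, and 5.07 to 5.33 with any 1 library left out. H2-Q2, its neighbour with shared sequence, had 0, 2 and 3 UMIs in chow and 5 and 19 in MASH, so reads split between the 2 genes remain uncertain. The unthinned share of hepatocyte nuclei with an H2-Q1 UMI was 0.362, 0.295 and 0.373% on chow and 11.8 and 15.4% in MASH. In T and NK-like nuclei of MASH it was 2.11 and 0.581%, at the lower depth given above. At 500 UMIs per nucleus the shares were 1.55 and 1.98% of hepatocyte and 1.18 and 0.472% of T and NK-like nuclei.

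Outside hepatocytes H2-Q1 was seen mainly in MASH, at a few UMIs. Stellate nuclei held 0, 0 and 0 UMIs in chow and 14 and 13 in MASH, and immune nuclei 0, 0 and 0 on chow and 49 and 11 in MASH. Against a floor of 3 UMIs over the chow group, the MASH level was at least 3.58-fold higher in stellate and 4.59-fold higher in immune nuclei, counting error only. As a percent of the hepatocyte level in the same library, H2-Q1 was 32.1 and 15.3% in stellate, 59.4 and 44.8% in endothelial and 61.3 and 17.4% in immune nuclei of MASH. The 8 hepatocyte marker genes, Alb and Hnf4a among them, had medians of 63.8 and 32.4%, 81.9 and 47.4% and 84.3 and 42.4% there. H2-Q1 lay between their lowest and highest values in each of these but immune nuclei of MASH replicate 2. There Hnf4a, the lowest, stood at 18.5%. In cholangiocyte nuclei of MASH, H2-Q1 held 8 and 12 UMIs and was 48.8 and 14.8%. The value of MASH replicate 2 was again below Hnf4a, the lowest marker, at 21.5%.

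Nlrc5, the class I coactivator, was higher in hepatocyte nuclei of MASH and lower in stellate nuclei. Hepatocyte levels were 39.4, 62.5 and 43.3 CPM on chow and 77 and 79.9 in MASH. The TMM fold was 0.36 ± 0.29, close to the SE, and 0.70 without scaling. In stellate nuclei the levels were 64.6, 69.5 and 72.1 on chow and 49.6 and 50.9 in MASH (-0.50 ± 0.33), and in macrophage-like nuclei 47.6, 75.9 and 118 on chow and 50.7 and 59.4 in MASH, which overlapped (-0.63 ± 0.42). T and NK-like nuclei of chow held 173, 269.6 and 156, more than any other class with 20 nuclei in the same library.

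**Figure D5:**
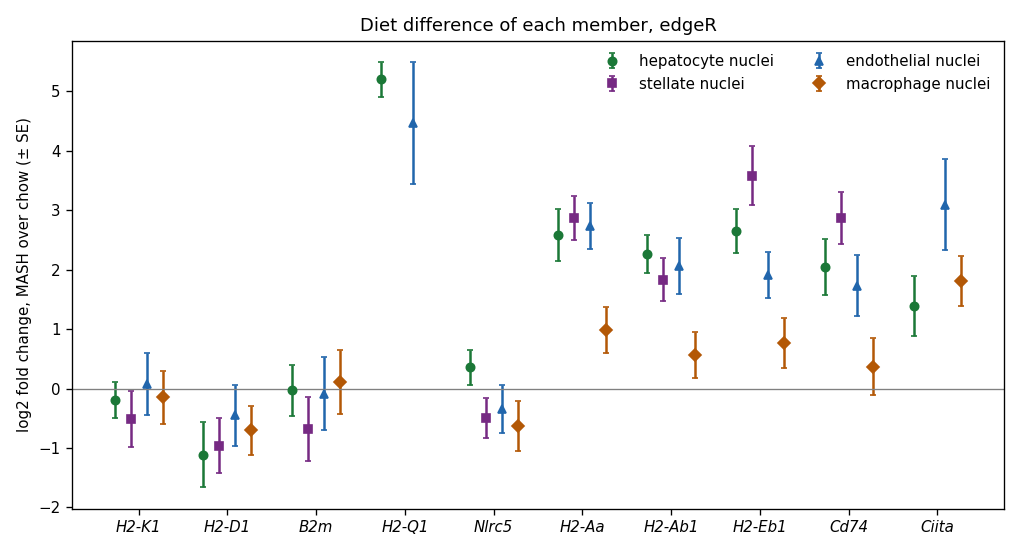
Log2 fold change of each gene, MASH over chow, with its SE from edgeR, in hepatocyte, stellate, endothelial and macrophage-like nuclei. H2-Aa, H2-Ab1, H2-Eb1 and Cd74 lie above 0 in all 4 classes, with the smallest values in macrophage-like nuclei, while H2-D1 lies below 0 in all 4. A missing point means too few UMIs to be fitted.

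In the fit over all genes, the genes among the 10 past an adjusted p of 0.05 (edgeR quasi-likelihood test) are counted only for completeness, as the genes were chosen with these contrasts known. They were 5 of 10 in hepatocyte nuclei (H2-Q1, H2-Aa, H2-Ab1, H2-Eb1 and Cd74, all higher), where 8.85% of all genes tested were called higher and 4.57% lower. Those calls were 1321 higher and 682 lower genes with TMM, and 1585 and 354 without scaling. Stellate nuclei had 4 of 8 (the class II genes, background 0.518%), endothelial nuclei 2 of 10 (H2-Aa and H2-Eb1, background 0.565%) and macrophage-like nuclei 1 of 9 (Ciita, background 0.965%). In immune nuclei as a whole, in B-like and in T and NK-like nuclei the count was 0, against 0.548%, 1.66% and 2.51% of genes called in either direction. At an unadjusted p under 0.05 it was also 0, 0 and 0, and DESeq2 called 0 in each.

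The other genes of the pathway were tested from lists of class I-like genes, peptide supply, class II loading, transcription factors, interferon signalling and costimulation. These lists too were chosen with earlier results of these data known, which limits their counts and p-values. In hepatocyte nuclei 10 of 63 tested genes rose and 3 fell (edgeR quasi-likelihood test, Benjamini-Hochberg adjustment over all genes tested), beside 8.85% and 4.57% of all genes, so the count of genes that fell was near the background. Of the 8 class II loading genes tested, 4 rose: the peptide exchange chains H2-DMb2 (3.34 ± 0.86, adjusted p = 0.0461) and H2-DMb1 (2.95 ± 0.47, adjusted p = 0.0132), Ctss, a protease that trims Cd74 (2.54 ± 0.51, adjusted p = 0.0234), and March1, a ubiquitin ligase that removes class II from the surface (2.41 ± 0.51, adjusted p = 0.0264). Their levels were low, Ctss at 1.24, 2.43 and 3.18 CPM on chow and 20.4 and 14.7 in MASH and H2-DMb1 at 0.263, 0.239 and 0.328 on chow and 2.72 and 2.87 in MASH. H2-DMb1 passed the low-count filter only through the MASH libraries. It could therefore only be called higher, and its call is a description. How many of the tested list genes entered in this way was not counted, which limits the counts of genes that rose. Of the immune-only reference genes, 5 of 17 rose in the same nuclei, Ptprc by 2.49 ± 0.29 and Cd53, a leukocyte tetraspanin, by 2.51 ± 0.45, and the list's median log2 fold change was 1.70 against 1.69 for class II loading and -0.03 for all genes.

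Of 13 peptide supply genes tested in hepatocyte nuclei, 3 rose and 1 fell. Psmb9, an immunoproteasome subunit, was 8.39, 9.25 and 5.97 CPM on chow and 36.2 and 26.1 in MASH (1.68 ± 0.28, adjusted p = 0.0144). Tap1 and Tap2, the paired subunits of the peptide transporter, rose by 1.07 and 1.25 on the log2 scale (adjusted p = 0.0331 and 0.0238). Psmb10, another immunoproteasome subunit, fell, with a log2 fold change of -1.06 (adjusted p = 0.0404). Of the 11 transcription factors, the promoter-bound subunits Rfx5 and Rfxank moved in opposite directions, by 1.0 and -1.18 (adjusted p = 0.0381 and 0.0257). Rfxank was 35.7, 38.9 and 33.9 on chow and 20.9 and 19.2 in MASH. Among 19 interferon genes, Cd274, the ligand of the inhibitory receptor PD-1, rose by 1.61 (adjusted p = 0.0252), and Iigp1, an interferon-induced GTPase, changed by -2.01 (adjusted p = 0.047), being at 687, 430.2 and 1041 CPM on chow and 235 and 233 in MASH. Iigp1 was highest in chow replicate 3, and its fold was -1.45 without that library. H2-M3, a class I-like gene that presents formylated peptides, rose by 1.66 (adjusted p = 0.035) and was the 1 called of 10 in its list. Neither of the 2 costimulation genes tested passed. Beyond the first 6 by size of fold, the called genes named here were picked after their values were seen. The calls moved with the libraries, though without a MASH library the chow libraries alone give the spread: 2 list genes were called without chow replicate 2 and 0 and 0 without MASH replicate 1 or 2, when the calls over all genes dropped from 2003 to 871, 174 and 136.

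In the other classes few genes of these lists passed. Ctss rose in stellate nuclei (2.34 ± 0.41, adjusted p = 0.0213, edgeR), with 14.8, 17.4 and 9.75 CPM on chow and 74.5 and 63.3 in MASH, the 1 of 49 tested. H2-DMb1 rose in endothelial nuclei (3.57 ± 0.74, adjusted p = 0.049), with 1, 1 and 1 UMIs in chow and 20 and 17 in MASH, the 1 of 52. Both genes passed the low-count filter in these classes only through the MASH libraries. They could therefore only be called higher, and these calls are descriptions. The H2-DMb1 call was lost whenever 1 library was left out, and the Ctss call without chow replicate 2 or 3 or either MASH library. Ptprc rose with H2-DMb1 in the endothelial nuclei (2.81 ± 0.44). In immune, macrophage-like, B-like and T and NK-like nuclei edgeR called 0 of 56, 47, 10 and 11 genes. At an unadjusted p under 0.05 the counts were 4, 4, 1 and 0, and DESeq2 called 0, 0, 0 and 0.

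Over the 25 sums of 5 lineages in 5 libraries, H2-Aa, H2-Ab1 and Cd74 had Pearson correlations of log2 levels of 0.97 to 0.98 with each other, and H2-Eb1 of 0.82 to 0.85 with these. Ciita correlated with H2-Eb1 at 0.90. The 25 sums include cholangiocyte nuclei of chow replicates 1 and 2, which numbered 19 and 9, below the minimum of 20 used elsewhere. In these H2-Eb1 had 5 and 0 UMIs and Ciita 4 and 0. The weight of such points in the correlations was not tested. H2-K1 and B2m gave 0.86, Nlrc5 and H2-K1 -0.18, and H2-Q1 and H2-D1 -0.44. Of 14630 genes with at least 100 UMIs, those most like the summed class I genes were Cst3 (0.92), Itm2b (0.91), Itgb1 (0.91), Rpn2 (0.90) and Lamp1 (0.89). For the summed class II genes they were Actr3 (0.94), Csf1r (0.93), Psap (0.92), Fyb (0.91) and Cyth4 (0.91). Csf1r is the growth factor receptor of macrophages, and Fyb an adaptor of blood cells. For H2-Q1 alone, a list added after its values were seen, they were Fgf21 (0.96), Mmd2 (0.96), Defb1 (0.94), Slc22a27 (0.94) and Cyp2a22 (0.93), among them Fgf21, a hormone that hepatocytes make under metabolic stress. The points share libraries and depth, so these values are descriptions.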

How the data were processed

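Nuclei were isolated from snap-frozen liver, sorted by flow cytometry and captured with the 10x 3-prime kit (version 3). The authors aligned and counted reads with Cell Ranger 8.0.1 on GRCm38, leaving out introns, and deposited filtered matrices of raw UMI counts per gene and barcode. From these, nuclei with at least 300 genes were kept, and doublets were removed by scrublet score (scanpy 1.11.5) at 0.8% per 1000 barcodes, because automatic calls marked 0 to 3 barcodes a library. Nuclei were clustered in Seurat 5.3.0 (R 4.3.3) with the antigen presentation genes left out and named from marker lists, with clusters of median doublet score above 0.15, a limit set after seeing the data, left unnamed. Hepatocyte clusters were named mainly by lacking the markers of other lineages, and all names are rebuilt. UMIs were summed per library and class with at least 20 nuclei and tested in edgeR 4.0.16 (TMM, filterByExpr, quasi-likelihood, two-sided, Benjamini-Hochberg over all genes of a class, threshold 0.05). The scripts were tested on simulated data. The 10 genes and all lists were chosen with earlier results of these data known. Besides them, the text names up to 6 called list genes a class by size of fold and the 5 genes most like each class, and other names were chosen after their values were seen. Alternatives were DESeq2 1.42.0, RLE size factors, no low-count filter, Storey q-values, doublets kept, marker gates in place of clusters, the replicate number as a block, each library left out and, added after seeing the data, no scaling beyond library totals. Intervals and floors (3 UMIs) cover counting error only. Promoter sequences are RefSeq's, and a search of transcripts used GENCODE M21, which held 99.6% of the gene identifiers.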

Additional observations from a re-analysis of the deposited data

Results flagged for a closer look

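Some genes lay on opposite sides of the chow libraries in different lineages, with every MASH library above every chow library in one lineage and below in the other. The differences between lineages were not tested, and the values are log2 ratios of the mean counts-per-million (CPM) of the diets. Nlrc5 had a ratio of 0.70 in hepatocyte and -0.45 in stellate nuclei, a difference of 1.15, with no TMM scaling (the TMM folds were 0.36 and -0.50). Psmb9 had 1.98 in hepatocyte nuclei against -0.47 in endothelial and -0.60 in immune nuclei, differences of 2.45 and 2.58. Tap2 had 1.57 in hepatocyte and -0.33 in stellate nuclei, a difference of 1.90. These pairs were found by searching the genes and lineages for such patterns, and the share of all genes with such a pattern was not counted.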

How the results depend on the processing

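Counts are of list genes called in a class. In hepatocyte nuclei the 13 called became 8 with marker gates in place of clusters and ranged over 0 to 14 with 1 library left out, with 0 without either MASH library, where the lone MASH sample is assumed to vary like the chow libraries. In stellate nuclei the 1 called became 2 without scaling, 5 without the low-count filter and 0 with the replicate block, and 0 to 1 with 1 library left out. In endothelial nuclei the 1 called became 2 without scaling and 4 without the low-count filter, and 0 with RLE size factors, DESeq2, marker gates, the replicate block or any 1 library left out. In B-like nuclei the 0 called became 1 without chow replicate 1 (0 to 1 over the libraries left out). The causes were not tested. The other counts in these and the immune, macrophage-like and T and NK-like classes stayed within 1.5 times. Without scaling, the calls over all genes in hepatocyte nuclei were 1585 higher and 354 lower, against 1321 and 682 with TMM. Over all genes, hepatocyte calls were 3388 with DESeq2 and 3879 by Storey q-values, against 2003. Stellate calls were 89, and 175 without scaling, 150 with DESeq2, 542 without the filter and 25 to 129 with 1 library left out. Endothelial calls were 83, and 166 without scaling, 52 with RLE, 359 without the filter and 6 to 92 with 1 library left out. Macrophage-like calls were 110, and 218 without scaling, 70 without the filter, 0 with the replicate block and 9 to 255 with 1 library left out. Immune calls were 38, ranging over 6 to 545, B-like calls 9 (5 to 30) and T and NK-like calls 18 (8 to 46). Of 686 folds of the 10 genes under these alternatives, 653 moved by less than the spread and 33 by more, and none of the called folds changed sign. Shares of nuclei with a UMI moved with thinning depth.

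Replicate numbers were not shown to pair libraries: deviations of same-numbered libraries correlated at -0.11 and -0.22 in hepatocyte nuclei, and chow replicate 3 has no partner. With 2 MASH libraries, their deviations from the diet mean mirror each other. Each correlation is then fixed as the negative of the other pairing, so these values cannot decide on pairing. With the replicate block, 10 hepatocyte list genes were called. No dendritic-like comparison was possible, as chow held under 20 nuclei a library, and the cholangiocyte comparison only with marker gates (0 list genes called). Chow macrophage-like, T and NK-like and B-like sums rest on few UMIs, which limits folds of genes near the floor.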
